A study of Rattus norvegicus with 5 samples.

Results

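The nuclei described here are those of the rat ventral tegmental area (VTA) in which transcripts of GABA and of glutamate transmission were detected together. They were selected on measured counts. A member was a barcode with at least 1000 unique molecular identifiers (UMIs), more than 200 and fewer than 5000 genes, and under 5% of UMIs from Mt- genes. It had at least 2 of Gad1, Gad2 and Slc32a1 detected and at least 2 UMIs of Slc17a6. Mog was under 10 UMIs per 10000, and Th, Slc6a3, Slc18a2 and Ddc together were under 8 per 10000. The rule found 63 members among the 22084 barcodes that passed the filters on UMIs, genes and Mt- genes. They were set beside 1964 Gad-only nuclei, which met the same rule with Slc17a6 at 0, and 296 Slc17a6-only nuclei, which had at least 2 Slc17a6 UMIs and none of the Gad-family genes.

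The data were single-nucleus RNA-seq (snRNA-seq) of VTA punches from 5 adult male Sprague-Dawley rats, with both hemispheres of 1 rat combined and 1 library per rat (10x Genomics 3′ chemistry). All 5 rats formed 1 group, labelled as saline in the sample descriptions and described by the study as drug-naïve, so no treatment was compared. The design asks which genes are expressed in which VTA cells, and here the rats served as replicates for comparing 3 groups of nuclei from the same animals. Library totals ran from 10193355 to 88576210 UMIs. Rats 1 and 2 lost 3121 and 3514 barcodes to the Mt- filter, while rat 4 lost 51. Libraries shared 50 barcodes among the passing nuclei, and none of these was a member.

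GABA neurons make their transmitter with the glutamic acid decarboxylases encoded by Gad1 and Gad2 and load it into vesicles with the transporter encoded by Slc32a1 (VGAT). Glutamate neurons of the midbrain load vesicles with the transporter encoded by Slc17a6 (VGLUT2). Neurons that hold both sets of proteins and release both transmitters are known in the VTA and are especially well described for VTA projections to the lateral habenula. In droplet data, the same pair of signals in 1 barcode can also come from free RNA in the suspension or from 2 nuclei in 1 droplet.

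The members were spread unevenly over the rats. Rat 1 held 19, rat 2 held 29, rat 3 held 2, rat 4 held 7 and rat 5 held 6. As a share of all nuclei with at least 2 Slc17a6 UMIs, they were 17.8% in rat 1, 17.3% in rat 2, 5.0% in rat 3, 5.15% in rat 4 and 10.0% in rat 5. Rats 1 and 2 were the 2 highest on this scale and rats 3 and 4 the lowest, with a mean of 11.0% ± 6.25 (SD, n = 5 rats). Pooled, 63 of 511 such nuclei were members, or 12.3% (exact 95% binomial interval 9.61 to 15.5%, counting error only). Of the 2198 nuclei with at least 2 Gad-family genes, the members were 2.87%. The share of Slc17a6 nuclei was therefore the larger of the 2, and both are descriptions of what the rule selected.

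Most members sat close to the limits of the rule. Exactly 2 Slc17a6 UMIs were found in 38 of the 63, and 25 had 3 or more, 12 had 4 or more and 6 had 5 or more. The Gad-family genes summed to 2 UMIs in 20 members, to at most 3 in 29 and to 5 or more in 28. Only 13 members had at least 3 UMIs on each side, 4 had at least 4 and 2 had at least 5. The 2 nuclei with at least 5 on each side were both from rat 1. One had 7760 UMIs, with 14 of the Gad family and 8 of Slc17a6, and the other had 16020 UMIs, with 18 and 5. Just outside the rule lay 171 nuclei with the Gad-family genes and a single Slc17a6 UMI, and 152 nuclei with Slc17a6 and a single Gad-family gene. A further 50 nuclei met the transmitter criteria but were left out by the dopamine genes and 2 by Mog, and 27 members had dopamine genes between 4 and 8 per 10000.

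Gad2 was detected in 57 members, Slc32a1 in 49 and Gad1 in 32. The commonest combination was Gad2 with Slc32a1 and without Gad1, in 31 members, and all 3 genes were found together in 12. Per nucleus, the median Gad-family level was 8.37 UMIs per 10000 in members and 9.45 in Gad-only nuclei. The median Slc17a6 level was 3.14 per 10000 in members and 3.93 in Slc17a6-only nuclei. Both medians lay a little under those of the single-transmitter groups, on measures that the rule itself used.

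**Figure D1:**
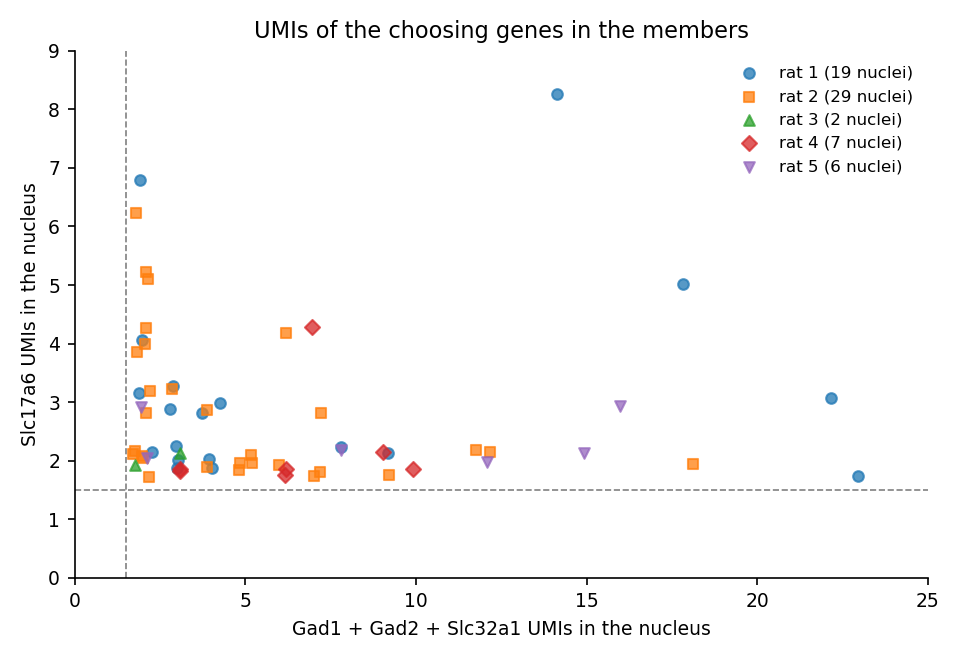
Each point is 1 member, with the summed UMIs of Gad1, Gad2 and Slc32a1 on the horizontal axis, UMIs of Slc17a6 on the vertical axis, and the rat given by colour and shape. Points carry a small random offset so that equal counts can be seen, and the dashed lines mark the limits of the rule. Most of the 63 members lie along the 2 limits, and 13 have at least 3 UMIs on both axes.

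The number was set beside the number that co-detection would give in nuclei that use neither transmitter. Glial nuclei were called from oligodendrocyte, astrocyte, oligodendrocyte precursor, microglia and vascular markers, 9211 in all. If nuclei with Slc17a6 had held 2 or more Gad-family genes as often as glial nuclei of the same rat and UMI range, 68.6 members would have been counted instead of 63, a ratio of observed to expected of 0.919. The ratio was 1.06 in rat 1, 0.88 in rat 2, 0.591 in rat 3, 1.35 in rat 4 and 0.663 in rat 5. It was on both sides of 1 among the rats, at 0.908 ± 0.306 (mean ± SD, n = 5). The reverse count, in which nuclei with Gad-family genes gained 2 Slc17a6 UMIs as often as glia, gave 54.2 nuclei, and both directions together gave 123, above the 63 counted.

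The expected number depended strongly on how free RNA and glia were treated. With free RNA in proportion to a nucleus's UMIs it was 96.6, with a constant amount per droplet 31.9, and with glial nuclei that carried few neuronal transcripts (Snap25, Syt1 and Rbfox3 under 1 per 10000) 33.4, which gave a ratio of 1.88. The rule for glia, as written in the plan, can be read with this limit on all glial nuclei, which gives 1.88, or only on those not called by Mog, which gives the 0.919 above. The reading used was settled once the data were in hand, and it decides on which side of 1 the ratio lies. Droplets holding a Gad nucleus and a Slc17a6 nucleus, at a nominal 0.8% of doublets for each 1000 nuclei, added 4.31. These values lie on both sides of the 63 members counted. Except for the doublets, they count only Gad-family genes gained by Slc17a6 nuclei. The reverse, Slc17a6 gained by Gad nuclei, was 18.0 with free RNA in proportion to UMIs. It is not given for the constant amount or for the limited glial nuclei. After subtraction of estimated free RNA from each nucleus, 46 of the 63 members still met the rule, with 39.9 expected from glia on the same basis (ratio 1.15). The amount subtracted was in proportion to UMIs, and every member under 7211 UMIs was kept. What part of the members co-expressed the genes was not tested, since these counts cannot tell co-expression from co-detection in a single nucleus.

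The comparison varied with depth. Matched by rat, 9 members were counted and 6.22 expected from 1000 to fewer than 2000 UMIs, 4 and 1.48 from there to fewer than 3000, 7 and 4.66 to fewer than 5000, 11 and 10.6 to fewer than 8000, and 32 and 45.6 from 8000 UMIs. Only in the deepest range was the count under the expected number. Rat 3 had 2 glial nuclei from 5000 UMIs, so its expected number there is uncertain. The pooled shares mix the rats differently. Among nuclei from 1000 to fewer than 2000 UMIs, 14.5% of Slc17a6 nuclei were members (exact interval 6.86 to 25.8%), against 4.32% of glial nuclei with at least 2 Gad-family genes (3.47 to 5.30%). Of the 62 Slc17a6 nuclei in this range, 29 were from rat 1, which gave 124 of the 2015 glial nuclei, and within rat 1 the shares were 5 of 29 and 17.7%. From 3000 UMIs to fewer than 5000 the shares were 11.9% (4.91 to 22.9%) and 4.02% (3.35 to 4.78%). At 8000 UMIs and over they were 12.5% (8.71 to 17.2%) and 19.8% (15.9 to 24.2%). The pooled share among Slc17a6 nuclei lay between 9.76% and 14.5% over the 5 ranges, and the pooled glial share was highest in the deepest.

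**Figure D2:**
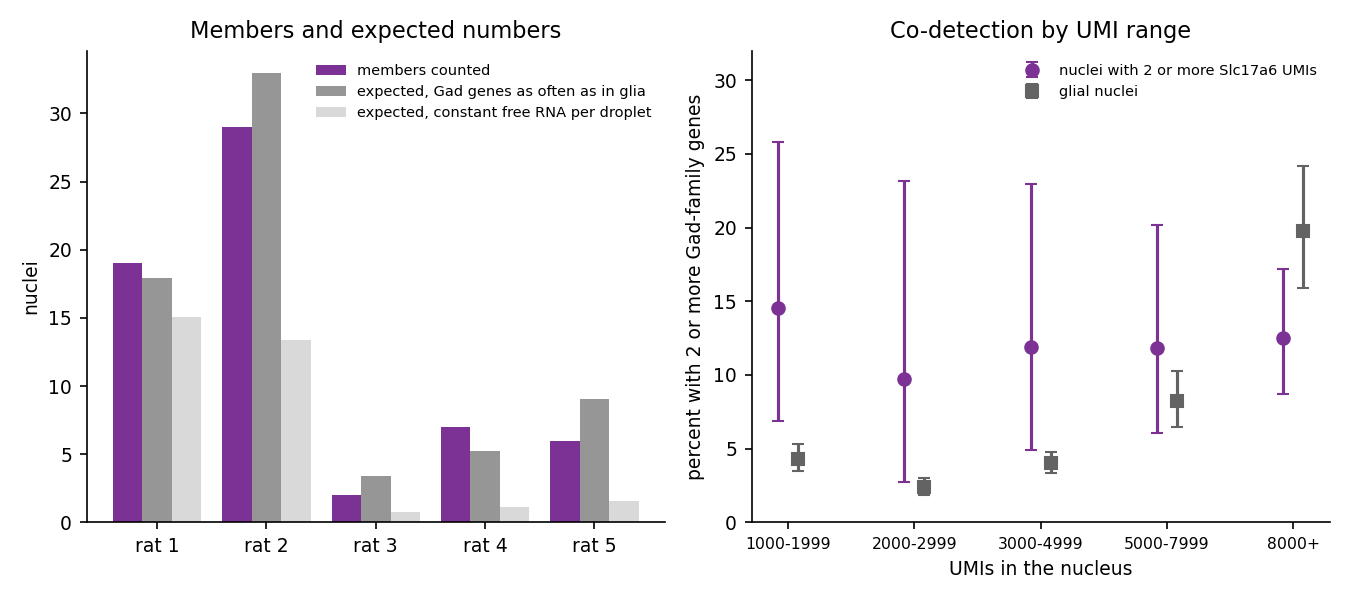
Left, bars give per rat the members counted, the number expected if Slc17a6 nuclei held Gad-family genes as often as glial nuclei of the same rat and UMI range, and the number expected from a constant amount of free RNA per droplet. Right, points give the percent of nuclei with at least 2 Gad-family genes by UMI range, pooled over 5 rats, with exact 95% binomial intervals. Rats 1 and 2 hold 48 of the 63 members, and the pooled glial share exceeds that of Slc17a6 nuclei in the range from 8000 UMIs, at 19.8% against 12.5%, although the rats are mixed differently in the 2 sets of nuclei.

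Members held more UMIs than Gad-only nuclei but mostly fewer than the sum of the medians of both groups. The median was 8725 UMIs in members, 6220.5 in Gad-only and 7622 in Slc17a6-only nuclei, and 6 members exceeded 13842.5, the sum of the other 2 medians. By rat, the members' median was 4604, 8746, 4928, 11708 and 10800.5 UMIs in rats 1 to 5. It was above that of Gad-only nuclei in 5 of 5 rats, by 0.68 ± 0.40 on the log2 scale (mean ± SD, n = 5). Against Slc17a6-only nuclei the difference was 0.27 ± 0.52, higher in 4 of 5 rats. No test is given, since requiring UMIs of both kinds selects deeper nuclei than requiring 0 of one kind. The upper limit on genes bears on this comparison, since 84 further barcodes met all other criteria with 5000 or more genes, 47 of them in rat 1.

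The neuronal identity of the members was checked on genes outside the rule. Snap25, a vesicle fusion protein, was detected in 18 of 19 members of rat 1, 27 of 29 of rat 2, 2 of 2 of rat 3, 6 of 7 of rat 4 and 6 of 6 of rat 5. Detection alone cannot mark a neuron at this depth. Over the rats, Snap25 was at 8.38 to 19.9 per 10000 in free RNA and at 1.58 to 3.46 in oligodendrocytes. The sum of Snap25, Syt1, Rbfox3 and Nyap2 ran from 20.3 to 41.5 per 10000 in members over the 5 rats, 26.1 to 50.5 in Gad-only and 25.2 to 35.6 in Slc17a6-only nuclei, against 3.40 to 10.1 in oligodendrocytes. The members thus overlapped both neuronal groups and lay above oligodendrocytes in every rat.

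Transcripts of oligodendrocytes were also present. Mbp, Mobp, Mag and Opalin summed to a median over rats of 32.8 per 10000 in members (lowest 9.16, highest 40.6), 11.1 in Gad-only nuclei (6.73 to 36.4) and 7.23 in Slc17a6-only nuclei (4.66 to 23.2), with 106 in oligodendrocytes. Mog, which the rule limited, gave a UMI in 24 members (38.1%), against 27.7% in each of the other groups. All 4 summed genes were tested and none passed the threshold in either comparison below. Their median difference was 0.44 on the log2 scale against Gad-only and 1.02 against Slc17a6-only nuclei, beside medians of -0.06 and -0.03 over all genes. Of the dopamine genes that the rule limited, Th, Slc6a3, Slc18a2 and Ddc together had a median of 3.0 per 10000 in members, 1.39 in Gad-only and 1.45 in Slc17a6-only nuclei, and gave a UMI in 76.2%, 60.8% and 65.5% of them. Ddc, which makes dopamine from its precursor, was at 0.318, 1.41, 2.03, 2.02 and 2.64 per 10000 in members and at 0.198 to 0.497 in Gad-only nuclei. The other three were closer, with Th at 0.946 ± 0.713 per 10000 in members and 0.472 ± 0.314 in Gad-only nuclei (mean ± SD, n = 5), Slc6a3 at 0.62 ± 0.339 and 0.425 ± 0.281, and Slc18a2 at 0.312 ± 0.206 and 0.242 ± 0.0719. In free RNA, Th, Slc6a3, Slc18a2 and Ddc were at 6.73, 5.71, 1.15 and 3.61 per 10000, above the mean of every group. Free RNA was estimated at 15.9 to 33.3% of a nucleus's UMIs over the rats, and its part in these levels was not tested. The 10 dopamine neuron genes outside the rule summed to a median of 4.33 per 10000 in members (1.91 to 8.38), 5.95 in Gad-only (3.28 to 8.08) and 3.07 in Slc17a6-only nuclei (2.02 to 4.08). Their summed means over rats were 4.72, 5.74 and 2.97 in the same order. Sox6, 1 of the 10 and also a factor of GABA neurons, alone gave 1.04, 3.78 and 0.456 of these. Astrocyte markers summed to a median of 1.71 per 10000 in members (0.433 to 7.51), 3.13 in Gad-only (0.724 to 14.3) and 3.53 in Slc17a6-only nuclei (0.513 to 5.53), and microglia and vascular markers reached at most 0.354 and 0.715 in members, 0.918 and 1.39 in Gad-only and 0.684 and 0.219 in Slc17a6-only nuclei. The part of oligodendrocyte and dopamine neuron RNA in the results that follow was not tested.

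The 3 groups were compared on UMIs summed per rat and group, with edgeR's quasi-likelihood test, the rat as a block and Benjamini-Hochberg adjustment over 7349 genes. The 9 genes of the rule are left out of the counts. Against Gad-only nuclei, 24 genes were higher in members (0.327% of genes tested) and 23 were lower (0.313%). Against Slc17a6-only nuclei, 6 genes were higher (0.0816%) and 9 lower (0.122%). Unadjusted p-values were under 0.05 for 604 and 610 genes. Rats differed greatly in weight, since the members' sums held 125823, 226303, 9856, 69223 and 64421 UMIs in rats 1 to 5. Rat 3, with 2 members, could show no level under 3.04 per 10000 with any certainty (3 UMIs in its sum). With no block for the rat, 8 genes were higher and 0 lower than in Gad-only nuclei, and 0 differed from Slc17a6-only nuclei. Adding the nuclei with 5000 or more genes gave 184 higher and 104 lower, and 287 and 75. Without rat 3 the 23 lower genes became 6, and without rat 5 they became 12. Against Slc17a6-only nuclei, leaving out rat 4 gave 2 higher and 1 lower, of which 1 and 1 were among the 6 and 9, leaving out rat 3 or rat 5 gave 4 lower, and leaving out rat 1 gave 14 higher. With both groups compared to the same member sums, the 2 comparisons share those samples. Members were selected for Slc17a6, which Gad-only nuclei lack, and for Gad-family genes, which Slc17a6-only nuclei lack. Genes that go with either set can therefore differ through the selection alone. For such genes the p-values below are no independent support.

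Several transcription factors of the glutamate and floor-plate lineages were among the genes above Gad-only nuclei. Of 27 such factors named in the files, 8 could be tested, 5 rose and none fell against Gad-only, with a list median of 1.86 on the log2 scale. Factors scarce in Gad-only nuclei, such as Lmx1b at a mean of 0.0443 per 10000, passed the filter on low counts through the other groups. The tested part of the list was thus open to rises more than to falls. Against Slc17a6-only nuclei 1 rose, Foxp2, and none fell, with a list median of 0.47. The list was written with earlier results of these data known. Members also had more UMIs of the 4 dopamine genes of the rule, at a median of 3.0 per 10000 against 1.39 in Gad-only and 1.45 in Slc17a6-only nuclei. These 4 genes are also abundant in free RNA, and the part of dopamine neuron RNA or free RNA in the rises of the factors was not tested. Lmx1a, a LIM homeodomain factor of the midbrain floor plate, was at 1.11, 1.33, 1.01, 0.867 and 3.42 UMIs per 10000 in members of rats 1 to 5. In Gad-only nuclei it was at 0.318, 0.0945, 0.09, 0.108 and 0.0929, and in Slc17a6-only nuclei at 1.07, 1.48, 2.41, 3.36 and 2.61. Members lay above Gad-only nuclei in every rat and overlapped Slc17a6-only nuclei, although the 1.01 of rat 3 was under its floor of 3.04. The difference from Gad-only was 3.76 ± 0.41 (log2 fold change ± SE, edgeR adjusted p = 1.5e-07), and that from Slc17a6-only was -0.42 ± 0.33 (edgeR adjusted p = 0.794). Lmx1a was also 4.18 higher in Slc17a6-only than in Gad-only nuclei, so the selection on Slc17a6 alone can give a rise in members. Lmx1b, its close relative, differed from Gad-only by 3.61 (edgeR adjusted p = 3.59e-06) on 23 UMIs in 14 members.

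Of the Ebf genes, which encode helix-loop-helix factors of differentiating neurons, only Ebf2 and Ebf3 were also called higher than in Gad-only nuclei. Ebf3 was at 1.27, 2.25, 1.01, 1.16 and 8.85 per 10000 in members against 0.159 to 0.347 in Gad-only and 1.20 to 2.31 in Slc17a6-only nuclei. Every rat was above its Gad-only level, with rat 3 under its floor of 3.04, and rat 5 stood apart at the top. The Ebf3 difference from Gad-only was 3.25 ± 0.32 (edgeR adjusted p = 3.17e-08), and its 133 UMIs came from 29 members, with 23 UMIs in a single nucleus of rat 5. Ebf2 rose by 1.57 (edgeR adjusted p = 0.0203), with a higher level in 4 of 5 rats, but not without rat 3, 4 or 5 (adjusted p = 0.103, 0.141 and 0.214). Bnc2, a zinc finger factor on no list and above Gad-only in 4 of 5 rats, had the largest fitted difference of the genes called, 4.17, but 35 of its 83 UMIs came from 1 nucleus of rat 2. It is named here after its value was seen.

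Few factors of GABA lineages could be tested. Of the 20 on the list, 4 were tested, and 1 fell against Gad-only (list median -1.15) and 1 rose against Slc17a6-only (list median 1.55). Zfpm2, a cofactor of GATA factors, was at 0.636, 3.98, 0, 0.578 and 0.155 per 10000 in members and at 2.88, 5.54, 2.79, 5.68 and 4.33 in Gad-only nuclei. All members' values were under those of the same rat's Gad-only nuclei, although rat 2 overlapped their range and the 0 of rat 3 has a floor of 3.04. Zfpm2 differed by -1.79 ± 0.36 (edgeR adjusted p = 0.00532), a call lost without rat 3 (adjusted p = 0.0645). Gata2, Gata3 or Sox14, factors of midbrain GABA neurons, gave a UMI in 3 of 63 members (4.76%), 22.6% of Gad-only and 4.73% of Slc17a6-only nuclei. Oligodendrocytes, which should lack these factors, showed 1.65%, at median depths of 1438.5 to 4894.5 UMIs over the rats against 8725 in members.

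Meis2, a homeobox factor of GABA neurons, was the listed factor called against Slc17a6-only nuclei. It was at 0.556, 1.59, 2.03, 9.10 and 0.155 per 10000 in members, 1.71 to 4.64 in Gad-only and 0 to 0.572 in Slc17a6-only nuclei. Members exceeded Slc17a6-only nuclei in 4 of 5 rats, by 3.78 ± 0.55 (edgeR adjusted p = 0.000123), and their difference from Gad-only, -0.80 ± 0.38, did not pass (adjusted p = 0.593). Without rat 4 the difference from Slc17a6-only nuclei was 2.10 (adjusted p = 0.0627), and with 3 or more Slc17a6 UMIs required it was 1.20 (adjusted p = 0.884). Meis2 was seen in 13 of 63 members, and 2 of these nuclei held 36 and 33 of the 109 UMIs.

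Members were also sorted by whether Lmx1a or Lmx1b and Meis2 were detected, with no test of whether these go together. Of the 63, 22 had an Lmx1 transcript without Meis2, 11 had Meis2 without Lmx1, 2 had both and 28 had neither. The Lmx1 members came from every rat (3, 12, 1, 3 and 5), as did the Meis2 members (5, 4, 1, 2 and 1). Both kinds had a median of 2 Slc17a6 UMIs, and their medians of Gad-family UMIs were 4.5 and 4. An Lmx1 transcript was found in 38.1% of members, 40.5% of Slc17a6-only nuclei, 4.58% of Gad-only nuclei and 1.58% of oligodendrocytes. Meis2 was found in 20.6%, 5.07%, 25.4% and 3.09% in the same order. Npas1 and Slc17a8, which mark other VTA groups, were seen in 2 and 4 members. For Npas1 this was 3.17% of members, against 8.45% of Gad-only and 6.42% of Slc17a6-only nuclei. For Slc17a8 it was 6.35%, against 3.31% and 3.04%.

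Nrxn3, a presynaptic adhesion molecule, was at 44.0, 64.2, 62.9, 98.4 and 112.9 per 10000 in members, 60.5 to 121 in Gad-only and 10.7 to 33.2 in Slc17a6-only nuclei. No member value fell in the Slc17a6-only range, and Nrxn3 differed from that group by 1.58 ± 0.23 (edgeR adjusted p = 0.000136) and from Gad-only by -0.49 (adjusted p = 0.584). Its transcripts were found in 57 of 63 members. Across 16 synaptic adhesion and scaffold genes it was the only one called among 13 tested, with list medians of -0.16 against Gad-only and -0.25 against Slc17a6-only. Pld5, of the phospholipase D family, was at 5.4, 3.54, 11.2, 17.8 and 4.35 per 10000 in members and 0.628 to 3.28 in Slc17a6-only nuclei, so that no value overlapped. It was higher by 1.79 ± 0.35 (edgeR adjusted p = 0.00878), a call lost without rat 3 (adjusted p = 0.145) or rat 4 (1.17, adjusted p = 0.222). Cadps2, which acts in dense-core vesicle release, was higher by 1.95 ± 0.34 (edgeR adjusted p = 0.00198), in 4 of 5 rats. Without rat 4 it was 1.40 (adjusted p = 0.141), and with 3 or more Slc17a6 UMIs required it turned to -0.59 (adjusted p = 0.915). It was chosen after its value was seen. Nrxn3 kept its call without rat 4 (1.54, adjusted p = 0.00758) but not with 3 or more Slc17a6 UMIs (0.91, adjusted p = 0.601).

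Erbb4, the neuregulin receptor, was at 4.69, 13.7, 10.1, 12 and 14.1 per 10000 in members and 2.63 to 5.09 in Gad-only nuclei. Rat 1 overlapped the Gad-only range and the other four lay above it, with a difference of 1.41 ± 0.23 (edgeR adjusted p = 0.00031). Kcnj6, a potassium channel opened by G proteins, rose by 1.29 (edgeR adjusted p = 0.00532), Tmem163, a zinc transporter, by 1.70 (adjusted p = 9.66e-05), and Necab1, a neuronal calcium-binding protein, by 1.29 (adjusted p = 0.0012). Each was above Gad-only nuclei in 5 of 5 rats, which was a condition of being named. Rat 3 was at 1.01 per 10000 for Kcnj6 and 2.03 for Necab1, under its floor of 3.04. None differed from Slc17a6-only nuclei past the threshold. The call for Kcnj6 was lost without rat 2 (adjusted p = 0.119) and that for Necab1 without rat 5 (adjusted p = 0.0671).

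Cacna2d1, an auxiliary subunit of voltage-gated calcium channels, lay between the groups. It was at 5.80, 6.19, 0, 1.01 and 6.36 per 10000 in members, 0.535 to 0.813 in Gad-only and 8.48 to 16.2 in Slc17a6-only nuclei. Members were under Slc17a6-only nuclei in every rat, by -1.44 ± 0.31 (edgeR adjusted p = 0.0194), and above Gad-only nuclei in 4 rats, by 2.68 ± 0.33 (edgeR adjusted p = 2.72e-06). The call against Slc17a6-only was lost without rat 3 (adjusted p = 0.132) and without rat 4 (adjusted p = 0.167). Hs6st3, a heparan sulfate sulfotransferase, was at 4.69, 5.30, 0, 10.7 and 2.64 in members and 7.34 to 25.9 in Slc17a6-only nuclei. It was lower in every rat, by -1.73 ± 0.25 (edgeR adjusted p = 0.000123), and stood near its Gad-only level of 6.25 ± 2.22. Hs3st5, of the same enzyme family, and the adhesion genes Opcml and Cntn4 differed from Slc17a6-only nuclei by -1.33, -1.20 and -1.48 (edgeR adjusted p = 0.0181, 0.00716 and 0.00944), each lower in every rat. As for Cacna2d1 and Hs6st3, the same direction in every rat was a condition of being named. Dpf3, a chromatin reader, had 11 UMIs in 7 members and differed by -2.13 (edgeR adjusted p = 0.0181). Without rat 4 none of Hs3st5, Opcml, Cntn4 and Dpf3 passed (adjusted p = 0.0859, 0.0748, 0.0659 and 0.0992). Without rat 3 Cntn4 and Dpf3 did not (0.069 and 0.0701), without rat 5 Hs3st5, Opcml and Dpf3 did not (0.0749, 0.12 and 0.0704), without rat 2 Hs3st5 did not (0.139), and without rat 1 Dpf3 did not (0.051).

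Several of the named genes under the Gad-only level had few UMIs. Sox6, a factor of GABA and dopamine neurons, was at 0.0795, 1.37, 0, 2.02 and 1.71 per 10000 in members and 2 to 6.77 in Gad-only nuclei, a difference of -1.92 ± 0.43 (edgeR adjusted p = 0.0203). DESeq2 did not call it (adjusted p = 0.715). Foxo1, a forkhead factor under insulin control, had 4 UMIs in 4 members, against 0.831 ± 0.297 per 10000 in Gad-only nuclei, and differed by -3.47 ± 0.52 (edgeR adjusted p = 0.0001). Pdgfd, a growth factor, had 11 UMIs in 5 members and differed by -2.33 (edgeR adjusted p = 0.00217). Stac, an adaptor of calcium channels, Fam163a, and Fign, a microtubule-severing enzyme, differed by -2.79, -2.52 and -1.69 (edgeR adjusted p = 0.00147, 0.00765 and 0.00817). Stac passed the filter on low counts only through Gad-only nuclei, at 0.342 to 0.919 per 10000. It reached at most 0.221 in members and 0.262 in Slc17a6-only nuclei, so its fall is no independent support. Outside Gad-only nuclei, Fam163a and Pdgfd exceeded these 2 values only in members of rat 4. All the genes of this paragraph were lower in 5 of 5 rats, for all but Sox6 a condition of being named. Rat 3 was at 0 for each, with a floor above their Gad-only level. Without rat 3 Sox6, Fam163a and Fign did not pass (adjusted p = 0.171, 0.0674 and 0.068), and without rat 2 Pdgfd, Fam163a and Fign did not (adjusted p = 0.175, 0.404 and 0.0893).

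Only a few genes lay outside both groups. Foxp2 and Reln were higher than in both groups, and Prlr and Cntn5 lower (each pair 0.0272% of genes tested). Foxp2, a forkhead factor, was at 7.79, 9.24, 8.12, 9.1 and 10.1 per 10000 in members, 1.62, 1.56, 1.75, 1.95 and 2.80 in Gad-only and 2.19, 4.14, 5.69, 4.86 and 5.69 in Slc17a6-only nuclei. All 5 member values were above every value of the other groups. The differences were 2.16 ± 0.21 (edgeR adjusted p = 2.49e-08) and 1.02 ± 0.21 (edgeR adjusted p = 0.0181), and the 443 UMIs came from 35 members with at most 58 in a single nucleus. Without rat 1, 2, 4 or 5 the second difference did not pass, with edgeR adjusted p of 0.0911, 0.121, 0.0859 and 0.0749. With no maximum of genes it was 0.06 (adjusted p = 0.963).

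Reln, an extracellular matrix protein that guides neuronal migration, was at 2.62, 2.56, 4.06, 13.1 and 5.59 per 10000 in members. It was at 0.376 to 0.671 in Gad-only and 1.59 to 2.08 in Slc17a6-only nuclei, so no value overlapped. The differences were 3.12 ± 0.30 (edgeR adjusted p = 2.49e-08) and 1.41 ± 0.30 (edgeR adjusted p = 0.0193). Reln was found in 21 members, and 56 of its 222 UMIs came from 1 nucleus of rat 4. Without rat 4 the difference from Slc17a6-only nuclei was 0.84 (edgeR adjusted p = 0.41), without rat 3 the adjusted p was 0.132, and without rat 5 it was 0.0545. With 3 or more Slc17a6 UMIs required it was 0.21 (adjusted p = 0.977), and with no maximum of genes 0.12 (adjusted p = 0.822).

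Prlr, the prolactin receptor, had 7 UMIs in 3 members and was at 0 to 0.310 per 10000. It was lower than both groups in every rat, by -2.25 and -2.80 (edgeR adjusted p = 0.0169 and 0.00197). The 0 of rat 3 has a floor of 3.04, above its Gad-only level of 0.72 and its Slc17a6-only level of 0.548. The first call was lost without rat 2 (adjusted p = 0.201) or rat 3 (adjusted p = 0.068), and the second without rat 4 (adjusted p = 0.0627). Cntn5, a contactin, was at 1.99, 3.49, 8.12, 9.25 and 2.79 in members, 5.05 to 12.8 in Gad-only and 5.34 to 14.1 in Slc17a6-only nuclei. It overlapped both groups, with differences of -1.23 and -1.03 (edgeR adjusted p = 0.00304 and 0.0489), and leaving out any 1 rat ended the second call (adjusted p from 0.0748 to 0.17). No gene stayed outside both groups when rat 4 was left out.

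**Figure D3:**
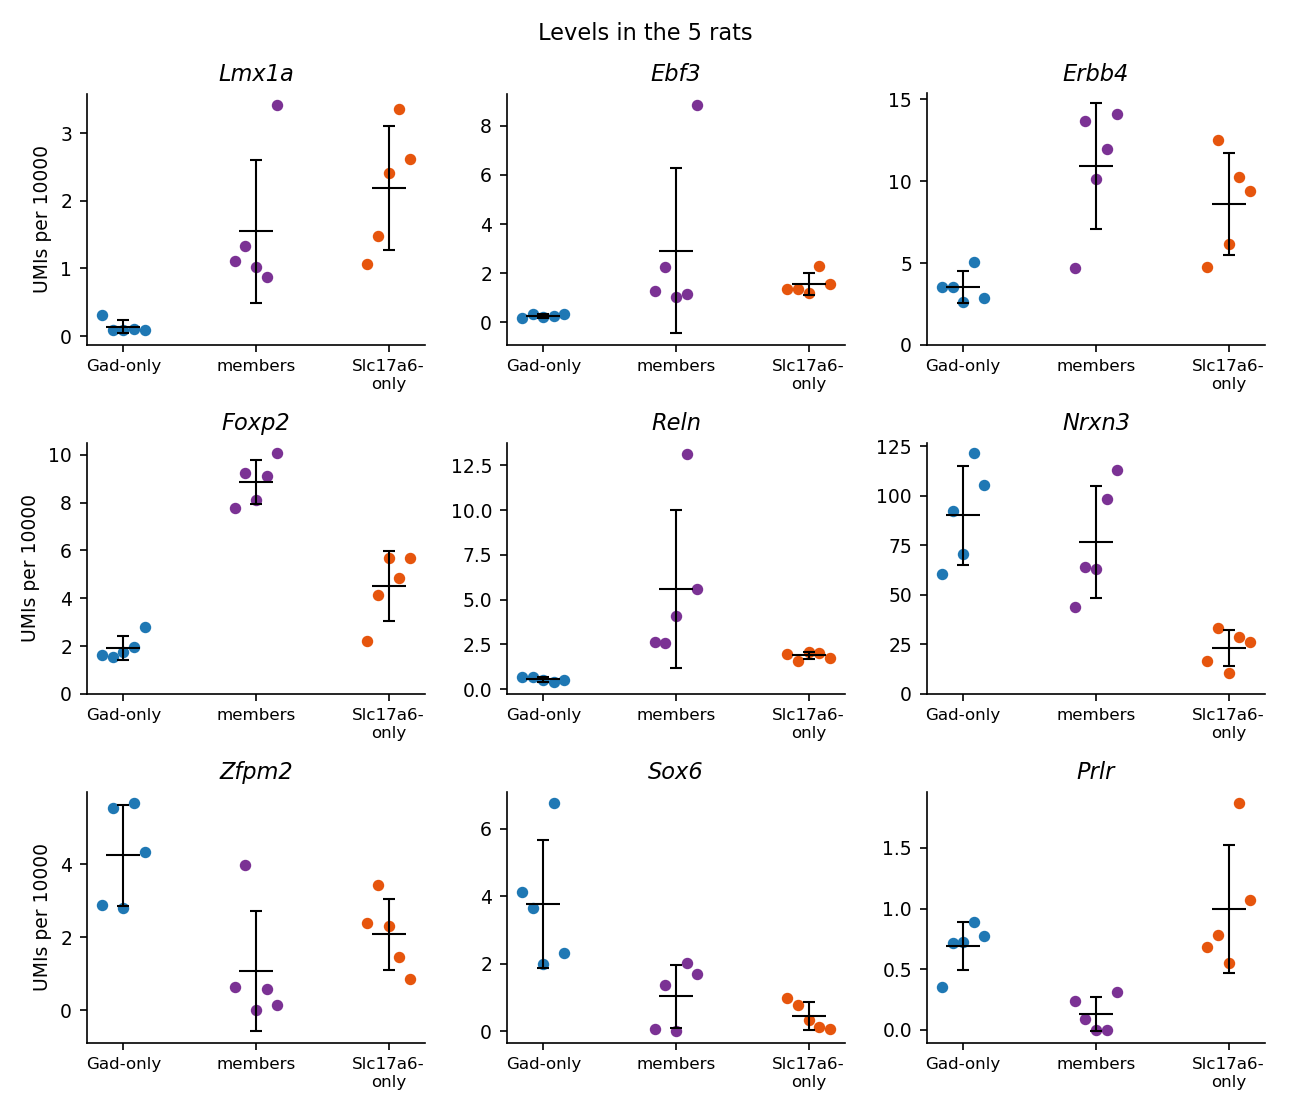
UMIs per 10000 of 9 genes in summed Gad-only nuclei, members and Slc17a6-only nuclei, with 1 point per rat (rats 1 to 5 from left to right), the mean as a bar and the SD as whiskers (n = 5). Members lie above Gad-only nuclei for Lmx1a, Ebf3, Foxp2 and Reln in every rat and above Slc17a6-only nuclei for Nrxn3, and the single high points of Ebf3 and Reln are rats 5 and 4.

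Few transmitter handling and receptor genes outside the rule passed the threshold. Of 4 tested genes of GABA uptake, supply and breakdown and 4 of glutamate release and supply, none passed in either comparison (list medians -0.43 and -0.13 for the first, 0.17 and 0.03 for the second). Of 12 GABA receptor subunits tested, only Gabra2 was called, at 0.608 ± 0.404 in members and 1.55 ± 0.443 in Gad-only nuclei (edgeR adjusted p = 0.0043, lost without rat 1 or 2 at 0.0531 and 0.0666), and the list medians were -0.45 and -0.51. None of 15 ionotropic glutamate receptor subunits passed (list medians -0.25 and -0.19), nor did any of 9 tested receptors for drugs and hormones, which ran from -1.79 to 0.75 against Gad-only (median 0.14) and from -1.66 to 0.98 against Slc17a6-only nuclei (median -0.15). The lowest of the latter was Hcrtr2, an orexin receptor, lower in 5 of 5 rats (edgeR adjusted p = 0.0861). A p that misses the threshold does not show equal levels at this depth.

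Of 20 neuropeptides and calcium-binding proteins, 8 were tested. Adcyap1, which encodes the peptide PACAP, rose against Gad-only nuclei by 2.22 (edgeR adjusted p = 0.0384) on 15 UMIs in 11 members, higher in 3 of 5 rats and past the threshold in the absence of rat 4 but of no other rat (adjusted p from 0.0573 to 0.339), and the other seven did not pass in either comparison. Among 6 tested dopamine neuron genes outside the rule, Nr4a2, a factor of dopamine neurons, rose against Gad-only by 2.21 (edgeR adjusted p = 0.0203), higher in 4 of 5 rats, and Sox6 fell. The Nr4a2 call was lost without rat 2, 3 or 5 (adjusted p = 0.0857, 0.068 and 0.19). Nr4a2 was at 0.403 ± 0.337 per 10000 in members, 0.113 ± 0.068 in Gad-only and 0.623 ± 0.395 in Slc17a6-only nuclei, and at 0.61 in free RNA. The 9 genes of glycine, acetylcholine and monoamine neurons were all too low to test. Glp1r, the receptor that the study was about, gave 2 UMIs in 2 members (3.17%), against 2.09% of Gad-only nuclei, 2.03% of Slc17a6-only nuclei and 0.0703% of oligodendrocytes. At 2 UMIs, no difference in Glp1r was detectable.

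Members were then described on the genes that separated the 2 single-transmitter groups, with no test of their place, since the choice of genes sets those groups apart. Slc17a6-only and Gad-only nuclei differed in 93 genes that were higher in the former and 108 that were higher in the latter. The fitted level of members lay between the groups for 148 of these (73.6%), beyond the Slc17a6-only level for 28 and beyond the Gad-only level for 25. Genes chosen for a large gap between the groups favour a place within it, so this share is a description only. On a scale from 0 at Gad-only to 1 at Slc17a6-only, the median gene placed members at 0.594. It was 0.536 for the 93 genes and 0.596 for the 108. Of the 93, members were called higher than Gad-only nuclei for 19, higher than Slc17a6-only nuclei for 2 and lower than them for 3, and of the 108 they were called lower than Gad-only nuclei for 11 and higher than Slc17a6-only nuclei for 4.

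Single nuclei were then placed by the 50 genes with the largest differences on each side, a measure chosen once the data were known. The place of a nucleus was the percent of its UMIs of these genes that belonged to the Slc17a6 side. Its median was 45.3% in members, 20.9% in Gad-only and 69.7% in Slc17a6-only nuclei. The genes were chosen for their difference between the 2 latter groups in these same nuclei, which sets those groups apart by construction, so no test is given for the position of members between them. By rat, the members' median was 44.7, 45.9, 30.5, 36.3 and 50.7%, against 28.6, 19.6, 20, 20.8 and 22.6% in Gad-only and 66.7, 62.8, 72.2, 77.2 and 74.2% in Slc17a6-only nuclei. The members' value was above the first and under the second in 5 of 5 rats, by 19.3 ± 7.55 and -29.0 ± 11.5 percentage points (mean ± SD, n = 5).

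Members ranged over the whole scale, from 0 to 95.8%, with quartiles at 36.3 and 64.7%. At or below 41.1%, which held 1767 of the 1964 Gad-only nuclei, lay 23 members, and at or above 43.3%, which held 266 of the 296 Slc17a6-only nuclei, lay 35. The remaining 5 fell in the narrow gap. These are ranges of a score and not cell types. On the Gad and Slc17a6 sides, members had medians of 8.37 and 7.10 Gad-family UMIs per 10000 and of 3.14 and 3.27 for Slc17a6. At most 3 Gad-family UMIs were found in 10 of the 23 and 18 of the 35. Over the 63 members, which share libraries and differ in depth, the place had a correlation of -0.31 with the Gad-family level and of -0.04 with the Slc17a6 level. An Lmx1 transcript was found in 17 of the 35 on the Slc17a6 side and 5 of the 23 on the Gad side, and Meis2 in 4 and 8. After free RNA was subtracted, 24 of the 35 and 18 of the 23 still met the rule. Of the 4 members with at least 4 UMIs of both kinds, the 2 of rat 1 were at 50.7 and 44.7%, that of rat 2 at 38.0% and that of rat 4 at 36.3%. The first pair lay on the Slc17a6 side and the others on the Gad side, and the nucleus of rat 2 was the only one of the 4 with an Lmx1 transcript (4 UMIs).

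**Figure D4:**
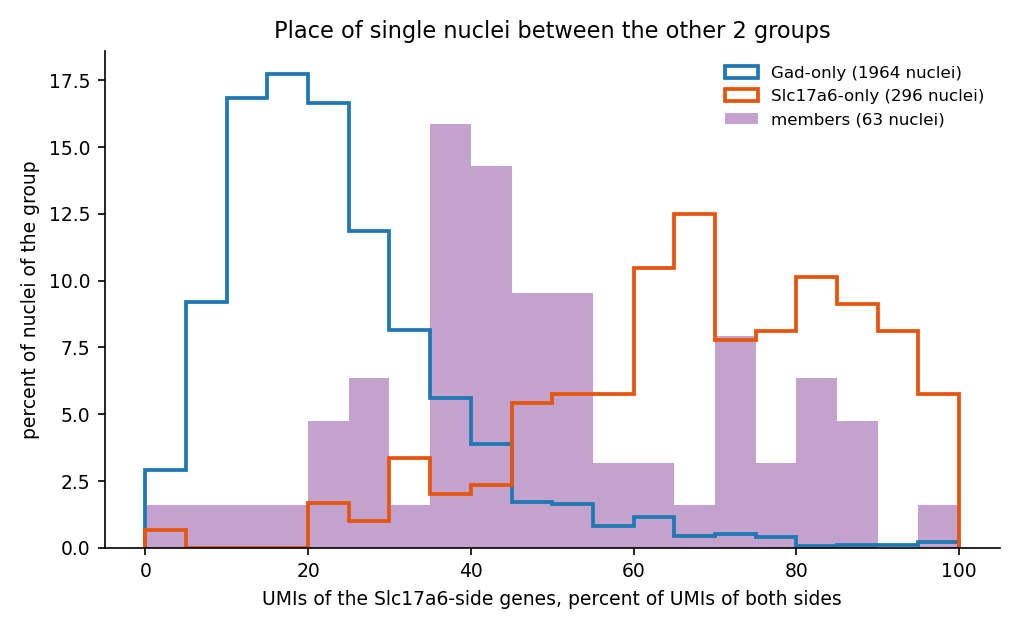
Distribution of single nuclei over the percent of UMIs of the separating genes that belong to the Slc17a6 side (50 genes per side), as percent of the nuclei of each group in steps of 5 points. Gad-only and Slc17a6-only nuclei are outlined, with medians of 20.9 and 69.7%, and members are filled, with a median of 45.3% and values spread from 0 to 95.8%.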

How the data were processed

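Nuclei from 5 rats were profiled by snRNA-seq. The authors deposited unfiltered UMI counts per gene and barcode; the matrix headers name Cell Ranger 4 and the submitters' processing notes Cell Ranger 8.0.1, and the genome build is not given in the sources used here. Barcodes were filtered as stated, with Python 3.11.15 and scanpy 1.11.5. The composition of free RNA was taken from barcodes under 100 UMIs. Its share of a nucleus's UMIs, 15.9 to 33.3% over the rats, was set by Gad1, Gad2, Slc32a1 and Slc17a6 in oligodendrocyte nuclei. These genes belong to the rule, and the oligodendrocyte nuclei were called by Mog with no limit on neuron genes. Scrublet marked 0 to 0.221% of nuclei per library, under the nominal 1.45 to 7.47% of doublets, so doublets may have remained. Counts were summed per rat and group, filtered by filterByExpr and tested in edgeR 4.0.16 (TMM, quasi-likelihood); SEs were derived from the F statistic. DESeq2 1.42.0 was an alternative. The script was checked on simulated data. The groups pair by animal: deviations of same-rat sums correlated at 0.219 to 0.716. Named genes were list genes and, per comparison and direction, up to 8 with the largest change among those past adjusted p 0.05, average log2 CPM of at least 5 and the same direction in every rat, plus genes called alike in both comparisons; a clone name was passed over. Members and lists were chosen with earlier results of these data known. Some genes of the lists are not reported here and were left out of list counts and sums.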

Additional observations from a re-analysis of the deposited data

Results flagged for a closer look

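In rat 1, members were 12.2% of the nuclei with 2 or more Gad-family genes and 1.05% of all nuclei passing the filters, far above the next highest rats at 2.71% and 0.311%. Rat 1 also lost 3121 barcodes to the Mt- filter; the part of library quality in its share was not tested. Over the whole set, 84 nuclei met the rule apart from having 5000 or more genes, and these were used in no main comparison. Levels of 8 genes in members of single rats stood apart from the other four: Lmx1a at 3.42 per 10000 and Ebf3 at 8.85 in rat 5, Reln at 13.1, Kcnj6 at 1.73, Fam163a at 1.01 and Pdgfd at 1.16 in rat 4, and Stac at 0.221 and Zfpm2 at 3.98 in rat 2. Such a gap arises by chance in about 1 of 20 sets of 5 values with the same normal spread, and 31 sets were looked at. The gene levels were sums over 2 to 29 members per rat, so their spread was not the same and this rate need not apply. Rat 4 had 7 members and rat 5 had 6.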

How the results depend on the processing

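Members numbered 63 and were 12.3% of Slc17a6 nuclei, at 0.919 of the number expected from glia. The ratios here count only Gad-family genes in Slc17a6 nuclei. Requiring 1 Slc17a6 UMI gave 234 members and a ratio of 1.5, and requiring 3 gave 25 and 0.776. Requiring all 3 Gad-family genes gave 12 (2.35%) and 0.837. With at least 2000 UMIs there were 54 and 0.866, and with the UMI threshold of Cell Ranger 48 and 0.794. With no maximum of genes there were 147 (19.3%) and 1.14. Limiting all glial nuclei by neuron genes, the other reading of the planned rule for glia, gave a ratio of 1.88; the reading used was settled after seeing the data. Leaving out 1 rat gave 34 (without rat 2) to 61 members, at ratios from 0.870 (without rat 1) to 0.958 (without rat 5).

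Genes higher and lower than in Gad-only nuclei (24 and 23), higher and lower than in Slc17a6-only nuclei (6 and 9), and outside both (2 and 2) are given below in this order. DESeq2 called 30 and 11, 12 and 10, and 2 and 1. DESeq2 size factors within edgeR gave 1 gene lower than both groups, as did at least 2000 UMIs and leaving out the highest Scrublet scores (chosen after seeing the data). No filter on low counts gave 45 and 141, 21 and 32, and 7 and 12. Nuclei of 3000 to 10000 UMIs gave 10 and 10, 4 and 11, and 0 and 1. Members with 3 or more Slc17a6 UMIs gave 18 and 27, 2 and 4, and 1 and 2. No maximum of genes gave 184 and 104, 287 and 75, and 111 and 4. Members kept after subtraction of free RNA gave 31 and 30, 15 and 21, and 3 and 6. The last 2 settings were chosen for these tests after seeing the data. Leaving out 1 rat gave 16 to 34 and 6 to 34, 2 to 14 and 1 to 13, and 0 to 2 and 0 to 3. The cause of these shifts was not tested.

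The sums of a rat came from 1 animal, and 13 of 15 deviations correlated best with the same rat. Without the replicate block, 8 genes were higher and 0 lower than in Gad-only nuclei, and 0 and 0 differed from Slc17a6-only nuclei, with 0 and 0 outside both. Of the 38 differences of named genes examined, 30 did not pass without the pairing. With 3 or more Slc17a6 UMIs required, 17 passed, 20 kept their direction but did not pass and 1 reversed. In nuclei of 3000 to 10000 UMIs, 14 passed and 17 did not, and the rest had no value.

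Of the 38, 37 kept their direction under the alternatives that gave a value, of 16 run. The exception was Cadps2 against Slc17a6-only nuclei, at -0.59 with 3 or more Slc17a6 UMIs. Lmx1a, Ebf3, Reln, Foxp2, Tmem163 and Cacna2d1 stayed past the threshold against Gad-only nuclei in each of the 16. Each of these settings kept the selection on Slc17a6. Depth limits genes near 1 UMI per 10000, most of all in rat 3, where 3 UMIs are 3.04 per 10000.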
